A study of Mus musculus with 4 samples.

Results

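The Hox-cluster miRNAs miR-10a-5p, miR-10b-5p, miR-196a-5p and miR-196b-5p were followed through 4 small RNA libraries of mouse dendritic cell (DC) development. They were taken by name from the deposited table of mature miRNAs, which lists 1078, and all 4 were found there. The libraries came from C57BL/6J mice, with 1 library per cell type, and they run along a series of stages. HSC were haematopoietic stem cells sorted from bone marrow as c-Kit+ Sca1+ Lineage- cells. Immature DC (imDC) were bone marrow cells of mice aged 5 to 6 weeks, grown for 6 days in GM-CSF at 10 ng/mL and IL-4 at 1 ng/mL. Mature DC (maDC) had the same cytokines, LPS at 10 ng/mL from day 4, and CD11c bead selection at day 8. Regulatory DC (DCreg) were obtained by culturing maDC on endothelial-like splenic stromal cells for 7 days or more and selecting them again on CD11c. Donor age was 5 to 6 weeks for imDC, maDC and DCreg alike and is not given for HSC. The sources used here do not say how many animals contributed to each library. The design asks how the miRNA set differs between these cell types. It has no replicates, so no difference below has a test or a p-value.

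MicroRNAs are RNAs of about the length of a short primer that guide Argonaute proteins to target mRNAs, mainly through the seed, the bases from position 2 to position 8. The genes of miR-10 and miR-196 lie inside the Hox clusters, between or within the homeobox genes that set position along the body axis and also act in blood stem cells. Members of both families repress Hox mRNAs: miR-196 directs cleavage of Hoxb8 mRNA in the mouse embryo. In the blood system miR-196b is known from stem and progenitor cells, and miR-10a from stem and progenitor cells and from regulatory T cells.

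The mature sequences are shown because each pair of paralogs differs by a single central base, on which the assignment of every read depends. They are from RefSeq (GRCm38.p6), where all 4 members had the same sequence as the deposited table, and are written 5′ to 3′ with the seed in capitals.
miR-10a-5p: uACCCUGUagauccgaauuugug
miR-10b-5p: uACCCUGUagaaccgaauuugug
miR-196a-5p: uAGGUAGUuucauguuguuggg
miR-196b-5p: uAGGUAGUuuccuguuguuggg
Counted from 1 at the 5′ end, the change between miR-10a-5p and miR-10b-5p is U12A, and the change between miR-196b-5p and miR-196a-5p is C12A. Both lie outside the seed, so the members form 2 seed groups, ACCCUGU for miR-10 and AGGUAGU for miR-196. In the deposited table no other mature miRNA carries either seed.

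The 4 mature miRNAs come from 5 hairpins in the 4 Hox clusters. By the GENCODE M21 annotation of GRCm38, Mir10a (chromosome 11, 96317165 to 96317274, plus strand) lies between Hoxb5 and Hoxb4, 993 bases before Hoxb4, and overlaps no annotated non-miRNA gene. Mir196a-1 lies in the same cluster (chromosome 11, 96265164 to 96265265, plus strand), between Hoxb13 and Hoxb9, with 51899 bases between it and Mir10a. Mir196a-2, the second source of miR-196a-5p, lies between Hoxc10 and Hoxc9 (chromosome 15, 102973350 to 102973434, plus strand), in an intron of an annotated Hoxc5 transcript. Mir10b lies in introns of annotated Hoxd3 and Hoxd4 transcripts (chromosome 2, 74726070 to 74726137, plus strand). Mir196b lies in an annotated exon of Hoxa9, on the same strand (chromosome 6, 52230081 to 52230165, minus strand).

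Levels are in parts per 1000000 (ppm) of a library's total. The deposited scores, which the file header calls normalised counts, summed to 2725948 to 5251069 per library. Beside them stand recounts from the deposited lists of unique reads, in which 3932627 to 5523681 reads per library matched a mature miRNA. Recounted values carry exact 95% intervals (Clopper-Pearson) that cover the counting error of reads only. PCR copies are not independent molecules, so the intervals may be too narrow for counts of molecules. A value of 0 allows up to 3 reads. Markers of the blood lineages were present in all 4 libraries, with miR-142-5p at 9377 to 18959 ppm. miR-142-3p and myeloid miR-223-3p were lower in the later DC libraries, at 94.6 and 669 ppm in DCreg and 366 and 635 ppm in maDC, against 1133 and 3438 ppm in HSC. miR-155-5p, induced on DC activation, stood at 47.6 ppm in HSC, 2609 in imDC, 1651 in maDC, then 141 in DCreg. The HSC library also held markers of other cells at a higher level than any DC library. All 4 erythroid markers summed to 15231 ppm in HSC against 1.56 to 19.4 ppm in the DC libraries, all 3 muscle markers to 8676 against 40.6 to 259, all 5 stromal markers to 1083 against 61.3 to 255, both arms of endothelial miR-126 to 121 against 1.47 to 8.00, and lymphoid miR-150-5p was at 914 ppm against 1.56 to 17.1. In maDC and DCreg the deposited table lists erythroid miR-144-5p and muscle miR-133a-3p at 0. The part of such cells in the HSC values below was not tested.

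miR-10a-5p was by far the most abundant member in every library, and its level dipped in imDC and stood near the HSC level again in DCreg. Its deposited level was 2193 ppm in HSC, 532 in imDC, 1018 in maDC, then 2042 in DCreg. By recount it had 6672, 2114, 3405 and 4642 reads in that order, or 1284, 401, 616 and 1180 ppm. It held 89.1% of the recounted reads of the 4 members in HSC, 94.3% in imDC and 98.7% in maDC, and 96.6% in DCreg. By deposited level it ranked 50th of all 1078 miRNAs in HSC, 85th in imDC, 48th in maDC, then 35th in DCreg. Each step in the order HSC, DCreg, maDC, imDC was larger than counting error. The first was small, with HSC 1.09-fold above DCreg by recount (interval 1.05 to 1.13), and 3 of 7 alternatives turned it, with DCreg then the higher. In bulk libraries such as these, fewer cells of a type and less RNA per cell cannot be told apart.

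**Figure D1:**
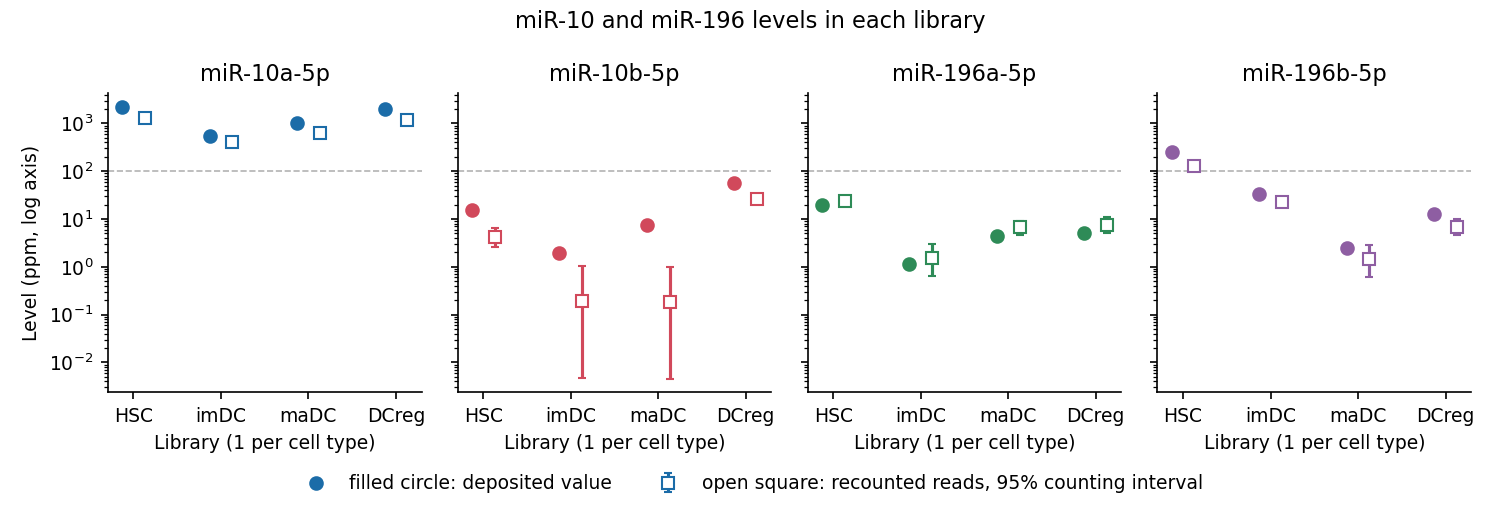
Level of each member (ppm, log axis) in the 4 libraries, with deposited values as filled circles and recounted reads as open squares with their 95% counting intervals; the dashed line marks 100 ppm. miR-10a-5p had its lowest recounted level in imDC, at 401 ppm, miR-196b-5p passed 100 ppm in HSC alone, and miR-10b-5p rested on 1 read each in imDC and maDC.

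miR-196b-5p had its highest level in HSC and its lowest in maDC. The deposited level was 251 ppm in HSC, 33.7 in imDC, 2.46 in maDC, then 12.5 in DCreg. Recounted, these were 675, 118, 8 and 27 reads, or 130, 22.4, 1.45 and 6.87 ppm. Every neighbouring pair in the order HSC, imDC, DCreg, maDC differed by more than counting error, the closest being imDC over DCreg at 3.26-fold (2.13 to 5.16). Since miR-10a-5p and miR-196b-5p moved apart, the number of miR-10a-5p reads per miR-196b-5p read was 9.88 in HSC, 17.9 in imDC and 426 in maDC, and 172 in DCreg. The scaling of a library does not enter that ratio, because both counts come from the same library.

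The 2 less abundant members stayed under 100 ppm in every library. miR-196a-5p had 19.4 ppm in HSC, 1.14 in imDC, 4.47 in maDC, then 5.14 in DCreg, and its recount gave 122, 8, 37 and 30 reads, or 23.5, 1.52, 6.70 and 7.63 ppm. Its highest value was thus in HSC and its lowest in imDC, while DCreg and maDC did not differ beyond counting error (1.14-fold, 0.679 to 1.89). miR-10b-5p, known for its part in the invasion of breast cancer cells, had its highest level in DCreg. Its deposited level was 15.4 ppm in HSC, 1.90 in imDC, 7.37 in maDC, then 55.4 in DCreg. In recounted reads, which may end in unmatched 3′ bases, the gap was wider, with 22 reads in HSC, 1 in imDC and 1 in maDC, and 104 in DCreg (4.23, 0.190, 0.181 and 26.4 ppm). Reads that matched the Mir10b hairpin over their whole length numbered 22, 0, 1 and 96 in the same order. The order of imDC and maDC is not settled by 1 read each: the deposited values put maDC higher, and the recounted ratio of imDC to maDC was 1.05 with an interval of 0.0134 to 82.3.

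A call was made where 2 libraries differed at least 2-fold, with a pseudocount of 0.5 on the deposited scores, and 1 of them reached 100 ppm. Only miR-10a-5p and, in comparisons with HSC, miR-196b-5p reached that level. Ratios below are plain ratios of deposited ppm or of recounted ppm, as named, with intervals for recounted ones, and log2 ratios are of deposited values with the pseudocount. The comparisons share libraries, so their values are not independent.

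In imDC against HSC both tested members were lower, and the 2 below the level for testing had lower values as well. miR-10a-5p stood at 532 ppm in imDC and 2193 in HSC, a deposited ratio of 0.242 and a recounted one of 0.313 (interval 0.298 to 0.328). miR-196b-5p was at 0.134 of its HSC level, recounted 0.172 (0.141 to 0.210). Of all 187 miRNAs tested, 28.3% were called lower and 26.2% higher, with a median log2 ratio of -0.12 (18.1% and 36.2% of 149 by recount). The trimmed mean of M-values (TMM) sets the scale from miRNAs near the middle of the ratios. With it 35 of 171 tested were lower and 58 higher, in place of 53 and 49 of 187. The ratio of miR-10a-5p lay below that of 158 of the 187 and that of miR-196b-5p below 167. miR-196a-5p had 8 reads in imDC against 122 in HSC, a recounted ratio of 0.0647 (0.0273 to 0.132) and a deposited one of 0.0589. miR-10b-5p had 1 read in imDC against 22 in HSC, a recounted ratio of 0.0448 (0.00109 to 0.277) and a deposited one of 0.124. The median log2 ratio over the 4 members, 2 of them outside the tested set, was -2.92 (-3.20 by recount).

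In maDC against HSC, both tested members were again called lower, but their distance from the other miRNAs was unequal. miR-196b-5p had 8 reads in maDC and 675 in HSC, a recounted ratio of 0.0112 (0.00480 to 0.0221) and a deposited one of 0.00978. That log2 ratio of -6.61 had 167 of the 180 tested miRNAs above it. miR-10a-5p had a log2 ratio of -1.11, close to the median of -0.97 over all tested miRNAs, of which 48.9% were called lower and 21.7% higher (48.5% and 20.9% of 134 by recount). With TMM 61 of 169 tested were lower and 53 higher, in place of 88 and 39 of 180. With TMM, with median-of-ratios or with the 5 most abundant miRNAs left out, miR-10a-5p was no longer called (log2 ratio as high as -0.35). miR-196a-5p stood at 4.47 ppm in maDC and 19.4 in HSC (deposited ratio 0.230, recounted 0.285, 0.192 to 0.415). miR-10b-5p had 1 read in maDC and 22 in HSC (recounted ratio 0.0428, 0.00104 to 0.265), against a deposited ratio of 0.479. The median log2 ratio of the 4 members, 2 of them under 100 ppm and so outside the tested set, was -1.60 (-2.90 by recount).

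In DCreg against HSC the members lay on both sides. miR-196b-5p stood at 12.5 ppm in DCreg and 251 in HSC, a log2 ratio of -4.31, and was the one member called lower, where 56% of the 175 tested miRNAs were called lower and 19.4% higher (56.7% and 17.2% of 134 by recount). With TMM 64 of 165 tested were lower and 51 higher, in place of 98 and 34 of 175. Its recount was 27 reads in DCreg and 675 in HSC, a recounted ratio of 0.0529 (0.0346 to 0.0776) beside a deposited one of 0.0496. miR-10a-5p was not called: its log2 ratio of -0.10 turned positive, up to 0.76, with TMM, with median-of-ratios and without the 5 most abundant miRNAs. That ratio stood above those of 121 of the 175 tested miRNAs, whose median was -1.43. miR-196a-5p had 30 reads in DCreg and 122 in HSC (recounted ratio 0.325, 0.210 to 0.488; deposited 0.265). miR-10b-5p had 104 in DCreg and 22 in HSC, a recounted ratio of 6.25 (3.92 to 10.4) and a deposited one of 3.6. The median log2 ratio over the 4 members, 2 of them outside the tested set, was -0.99 (-0.86 by recount).

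**Figure D2:**
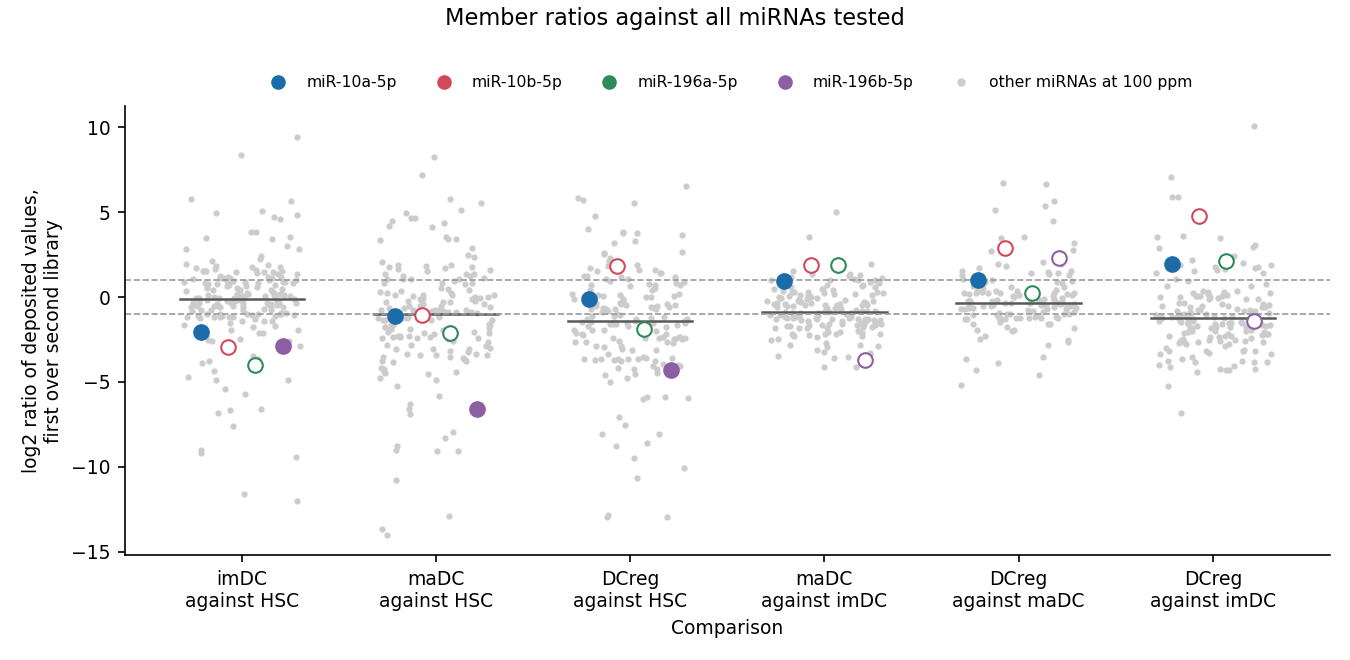
Log2 ratio of deposited values in each of the 6 comparisons, first-named library over second, for the 4 members (coloured, open where neither library reached 100 ppm) and all other miRNAs at 100 ppm (grey, with the median of all tested as a bar); dashed lines mark a 2-fold difference. miR-196b-5p lay low in maDC against HSC at -6.61 while miR-10a-5p lay at -1.11, near the median.

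Between the DC libraries miR-10a-5p was the only testable member, and its level was higher at each later stage, while the median of all tested miRNAs was below 0 in each comparison. In maDC against imDC its level was 1018 ppm in maDC, against 532 ppm in imDC, a log2 ratio of 0.94 that fell short of a call. In that comparison 9.38% of 160 tested miRNAs were called higher and 45% lower, and the ratio of miR-10a-5p exceeded those of 144. By recount it was 1.54-fold higher in maDC (1.45 to 1.62), where 1.49% of 134 tested miRNAs were called higher and 59.7% lower. With median-of-ratios 31 of 152 tested were higher and 32 lower, in place of 15 and 72 of 160, and miR-10a-5p was then called higher. The other members did not move together. miR-196b-5p had 8 reads in maDC and 118 in imDC (recounted ratio 0.0647, 0.0273 to 0.132; deposited 0.0729), whereas miR-196a-5p had 37 in maDC and 8 in imDC (recounted 4.41-fold, 2.02 to 10.97; deposited 3.91-fold). miR-10b-5p had 1 read in each, a recounted ratio of 0.954 (0.0122 to 74.9), against a deposited one of 3.87. The 2 libraries also differ in days of culture and CD11c selection, which cannot be told apart from maturation.

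In DCreg against maDC, miR-10a-5p had a level of 2042 ppm in DCreg, against 1018 ppm in maDC. At 2.01-fold it was just past the limit for a call, where 20.3% of 138 tested miRNAs were called higher and 28.3% lower. At 1.91-fold by recount (1.83 to 2.00) it was just short of one (18.1% higher and 24.8% lower by recount). With all reads as the total it was not called either (log2 ratio 0.71). Of 116 tested 18 were then higher and 41 lower, in place of 28 and 39 of 138. miR-10b-5p had a deposited ratio of 7.51. Its recounted ratio of 146 rests on 104 reads in DCreg and 1 in maDC and has an interval from 25.6 to 5824. miR-196b-5p had 27 reads in DCreg and 8 in maDC (recounted 4.74-fold, 2.09 to 12.1; deposited 5.07-fold). The 5 stromal markers summed to 255 ppm in DCreg, against 177 ppm in maDC, but by recount to 295 against 320 ppm. They did not move together. By deposited level miR-143-3p (155 ppm in DCreg against 40.9 in maDC) and miR-145-5p (9.90 against 2.68) were higher in DCreg. Lower there were miR-199a-3p (79.6 against 120), miR-214-3p (9.54 against 13.6) and miR-199a-5p (0.367 against 0.447). The muscle miRNAs summed to 259 ppm in DCreg, against 45.6 ppm in maDC. DCreg were grown on stromal cells, and the part of either cell type in these values was not tested.

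In DCreg against imDC, miR-10a-5p was 3.84-fold higher (recount 2.94-fold, 2.79 to 3.10), where 16.1% of the 168 tested miRNAs were called higher and 56% lower (12.1% and 65.2% of 141 by recount). With median-of-ratios 37 of 157 tested were higher and 58 lower, in place of 27 and 94 of 168. The median log2 ratio was -1.25, and that of miR-10a-5p exceeded those of 152 of the 168. miR-10b-5p had a deposited ratio of 29.1, and a recounted one of 139 (24.5 to 5556) from 104 reads in DCreg and 1 in imDC. miR-196a-5p had 30 reads in DCreg and 8 in imDC (recounted 5.02-fold, 2.25 to 12.7, and deposited 4.49-fold). miR-196b-5p went the other way, with 27 reads in DCreg and 118 in imDC (recounted ratio 0.307, 0.194 to 0.469, and deposited 0.370). As in maDC against imDC, the 2 miR-196 paralogs thus had values on opposite sides. Here, however, the log2 ratio of miR-196b-5p, -1.42, lay close to the median of all tested miRNAs. In maDC against imDC it was -3.72, beside a median of -0.88.

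The shift between paralogs could be followed within each library, where scaling plays no part. miR-196a-5p made up 15.3% of miR-196 reads in HSC (122 of 797, interval 12.9% to 18.0%) and 6.35% in imDC (8 of 126, 2.78% to 12.1%). In maDC it made up 82.2% (37 of 45, 67.9% to 92.0%) and in DCreg 52.6% (30 of 57, 39.0% to 66.0%). The intervals of maDC and DCreg lay wholly above those of HSC and imDC. The deposited values gave the same order at lower shares, of 7.17% in HSC, 3.28% in imDC, 64.5% in maDC, then 29.2% in DCreg, because a recounted miR-196a-5p read corresponded to a score of 0.467 to 0.75 and a miR-196b-5p read to 1.26 to 1.57. miR-10b-5p made up 0.329% of miR-10 reads in HSC, 0.0473% in imDC, 0.0294% in maDC, then 2.19% in DCreg (104 of 4746, 1.79% to 2.65%).

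**Figure D3:**
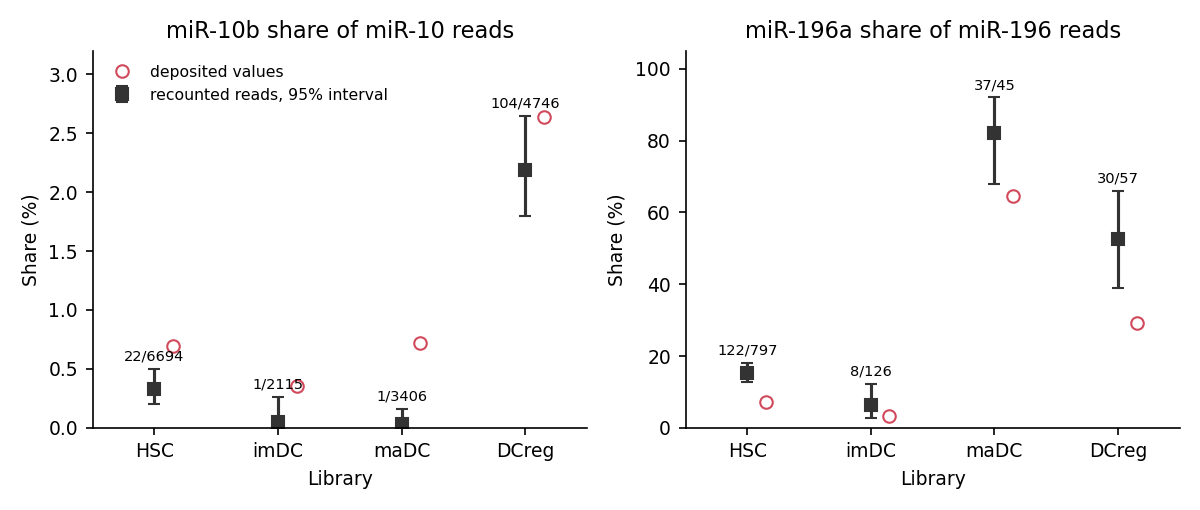
Share of miR-10b-5p among miR-10 reads (left) and of miR-196a-5p among miR-196 reads (right) in each library, in %, with recounted reads as squares with 95% counting intervals and reads over total, and deposited values as open circles. miR-196a-5p held 82.2% in maDC and 15.3% in HSC, and miR-10b-5p held over 2% in DCreg alone.

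Since a single base separates the paralogs, reads with a sequencing error in the more abundant one could be named as the other. The first 20 bases of all reads were therefore compared with miR-10a-5p and with miR-196b-5p, and reads at 1 base from each were sorted by the change. The miR-10b-5p base at position 12 was carried by 17 reads in HSC, 1 in imDC and 1 in maDC, and 85 in DCreg, or 2.75, 0.516, 0.316 and 21.7 per 1000 exact miR-10a-5p reads. In DCreg none of the 59 other single-base changes of miR-10a-5p was as frequent, although the commonest, C5U, came close with 78 reads. In HSC 8 of the 59 were at least as frequent as the miR-10b-5p base, in imDC 40 and in maDC 39. At position 12 itself the other 2 bases, which are 1 base away from both miR-10 sequences, together had 47 reads in HSC, 9 in imDC, 45 in maDC, then 19 in DCreg. The miR-10b-5p base was thus more frequent than any other change only in DCreg, and there by a small margin over C5U and C4U (71 reads). Both of those changes were common in every library, C5U at 19.7 to 27.8 and C4U at 14.9 to 25.3 per 1000 exact reads. The miR-10b-5p base was not, with 21.7 per 1000 in DCreg against 0.316 to 2.75 in the other libraries. How many of its DCreg reads were errors was not tested. The deposited scores of miR-10b-5p, 65 in HSC, 10 in imDC, 33 in maDC, then 151 in DCreg, exceed its recounted reads in every library; no source used here says whether they include reads with a mismatch.

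For miR-196 the base of the paralog was the commonest change in all 4 libraries. The miR-196a-5p base was carried by 108 reads in HSC beside 657 exact miR-196b-5p reads, where the commonest of the 59 other changes had 19. In imDC it had 7 reads and the commonest other change 6, so the 2 were close there. In maDC it had 37 reads and no other change had any, and in DCreg it had 30 and the commonest other change 1. These reads stood beside 8 exact miR-196b-5p reads in maDC and 27 in DCreg, where all 59 other changes together had 0 and 2. With so few exact reads, the rank of the miR-196a-5p base among the changes says little there. How many of its reads were errors was not tested. Counted from miR-196a-5p, the more abundant in both, the miR-196b-5p base had 8 reads in maDC and the next change, U8G, 1. In DCreg that base had 27 reads, and the next changes, U5G and U8G, 2 each.

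**Figure D4:**
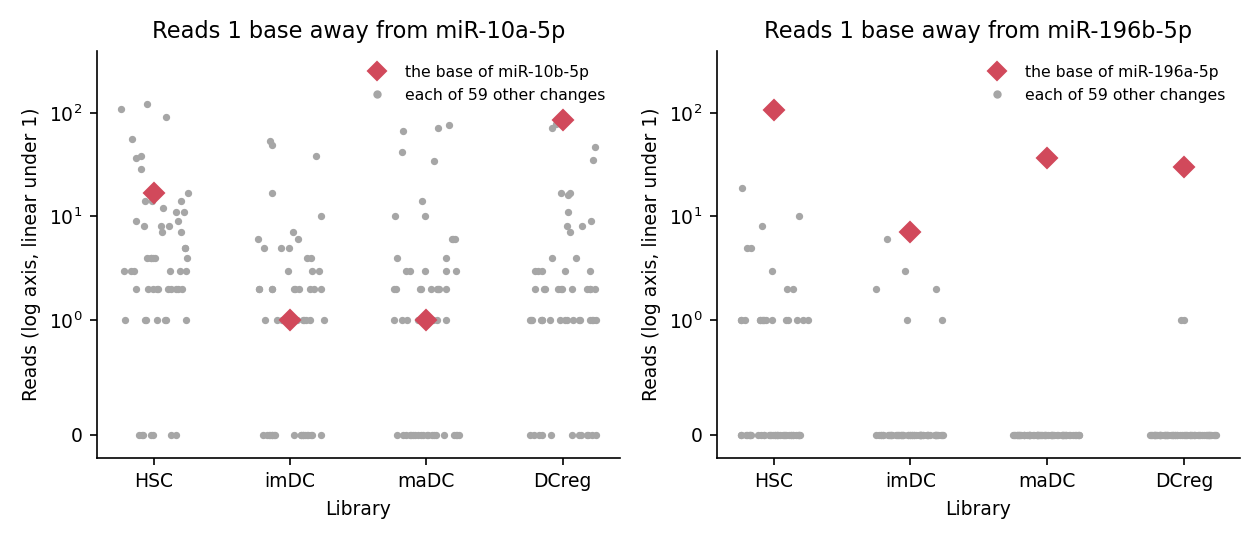
Reads whose first 20 bases differ at 1 base from miR-10a-5p (left) or miR-196b-5p (right) in each library, on a log axis that is linear under 1; the diamond is the base of the paralog and each grey point 1 of the 59 other changes. The miR-10b-5p base lies above every other change in DCreg (85 reads, against 78 for the next) and among them in HSC (17 reads).

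The hairpin bases that follow each mature sequence are shown because they bear on which of its 2 genes made miR-196a-5p; the 4 bases after the mature end are in capitals, on the strand of the hairpin (RefSeq, GRCm38.p6).
Mir196a-1: uagguaguuucauguuguugggCCUG
Mir196a-2: uagguaguuucauguuguugggAUUG
Mir196b: uagguaguuuccuguuguugggAUCC
A miR-196a-5p read that runs past the mature end with a C matches Mir196a-1 and one with an A matches Mir196a-2, unless the base was added after cutting. No miR-196a-5p read carried the C in any library, out of 122 in HSC, 8 in imDC and 37 in maDC, and 30 in DCreg. The A was carried by 13 reads in HSC, 2 in imDC, 6 in maDC, then 2 in DCreg. A U, which neither hairpin encodes at that place, was carried by 15, 1, 2 and 7 reads in the same order. A base there thus need not come from the hairpin, and how the U arose was not tested. Reads that match over their whole length numbered 88 for Mir196a-2 and 79 for Mir196a-1 in HSC, 6 and 4 in imDC, 34 and 29 in maDC, and 19 and 19 in DCreg, where the A reads therefore match neither hairpin in full. On the other arm, miR-196a-2-3p had 1 recounted read, in HSC, and miR-196a-1-3p had none in any library. The deposited entries for the 2 hairpins were 53 for Mir196a-2 and 29 for Mir196a-1 in HSC, and 16 and 4 in maDC; how reads that match both were divided is not stated. Reads that end at or before the mature end fit both hairpins, so most of the miRNA's reads cannot be assigned to either.

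The dominant miR-10a-5p read was 22 nt long, 1 base short of the annotated end, in every library. These reads are shown, in the DNA letters of the read lists, because they carry the 3′ and 5′ variation.
22 nt read: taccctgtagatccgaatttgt
23 nt read: taccctgtagatccgaatttgtg
18 nt read: taccctgtagatccgaat
later start: accctgtagatccgaatttgtg
The 22 nt read made up 72.7% of miR-10a-5p reads in HSC, 60.6% in imDC, 69.6% in maDC, then 69.1% in DCreg. The full 23 nt read made up 10.3% in HSC, 20.2% in imDC and 16.3% in maDC, and 8.12% in DCreg, so its share was highest where the miRNA was lowest. Reads of 18 nt made up 0.854%, 0.710%, 1.5% and 4.29% in the same order. In DCreg none of 54 other mature sequences with at least 1000 reads in every library had a larger share of 18 nt reads (median 0.493%, highest 3.81%), whereas 15 of the 54 did in HSC, 16 in imDC and 1 in maDC.

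A start 1 nt later moves the seed to CCCUGUA, which no miRNA of the deposited table has as its own. Such reads made up 4.11% of miR-10a-5p in HSC (3.64% to 4.61%), 5.25% in imDC, 3.14% in maDC and 7.09% in DCreg (6.37% to 7.86%). Over the 54 other sequences the median was 0.143% to 0.223%, and between 5 and 8 of them exceeded miR-10a-5p in a library. miR-10b-5p showed the later start in 18 of its 104 DCreg reads (17.3%, 10.6% to 25.97%) and in 5 of 22 in HSC. miR-196 reads nearly all began at the annotated base, the exceptions being 2 of 675 miR-196b-5p reads in HSC.

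miR-196b-5p had another 3′ profile. The exact 21 nt and full 22 nt reads made up 7.41% and 44.4% of its 27 reads in DCreg, and 46.1% and 16.6% of its 675 reads in HSC. The 21 nt share in DCreg rests on 2 reads (0.910% to 24.3%), and imDC had 35.6% and 29.7% of 118 reads. The paralog miR-196a-5p had 6.67% and 56.7% of 30 reads in DCreg, and 27.0% and 20.5% of 122 in HSC. A U after the mature end, where the Mir196b hairpin has A, was carried by 12.7% of miR-196b-5p reads in HSC (86 of 675, 10.3% to 15.5%). The share was 9.32% in imDC (11 of 118) and 29.6% in DCreg (8 of 27, 13.8% to 50.2%). In maDC none of 8 reads carried it.

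**Figure D5:**
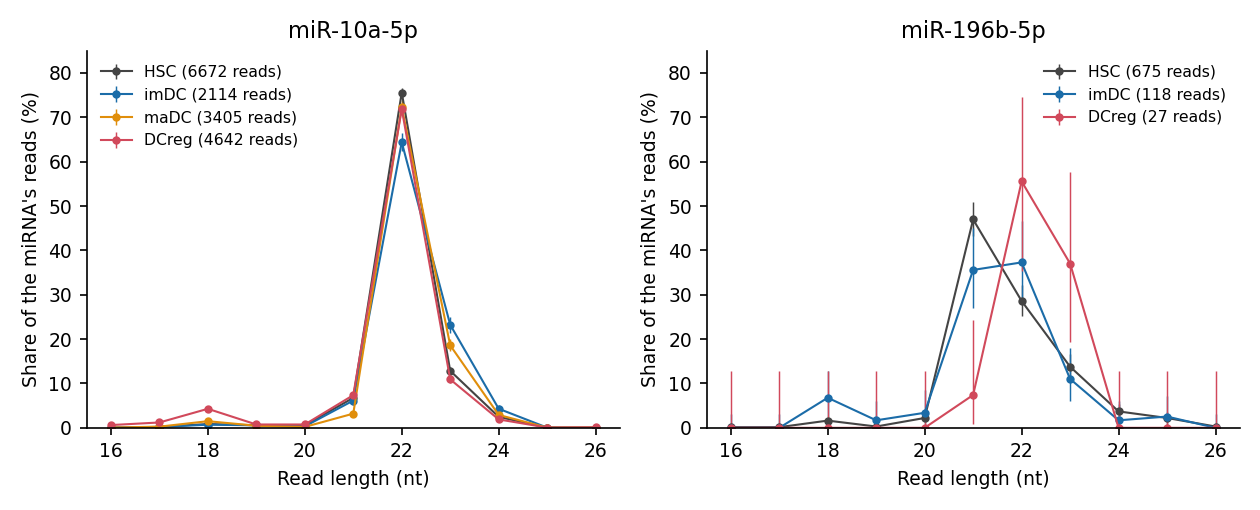
Length of the reads of miR-10a-5p (left) and miR-196b-5p (right) as a share of the miRNA's reads in each library, in %, with 95% counting intervals; maDC is left out on the right because it had 8 reads. miR-10a-5p peaked at 22 nt in all 4 libraries, and its 18 nt share was highest in DCreg at 4.29%.

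Among the other arms of these hairpins none reached 100 ppm. miR-10a-3p had 96 recounted reads in HSC, 59 in imDC, 29 in maDC, then 62 in DCreg, or 1.42%, 2.72%, 0.844% and 1.32% of the reads of both arms. Unlike its partner arm, it had fewer reads in maDC than in imDC, a ratio of 0.469 (0.290 to 0.743), while the ratio for miR-10a-5p was 1.54. miR-196b-3p had 45 reads in HSC, 9 in imDC, 0 in maDC, then 4 in DCreg, so it too was highest in HSC. Its lowest value was in maDC, but the interval of DCreg over maDC began at 0.927, so these did not differ beyond counting error. Its DCreg and imDC levels did not differ beyond counting error (recounted ratio 0.595, 0.134 to 2.13). miR-10b-3p had no read that matched its hairpin exactly in any library. No read matched the antisense strand of any of the 5 hairpins. The other Hox-cluster miRNA, miR-615, was near the floor: miR-615-5p had deposited scores of 13 to 19 but 3 recounted reads in maDC and none elsewhere, and miR-615-3p had none.

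The wider miR-10 family shares much of its sequence with miR-10 but has other seeds. Of its 5 listed members (miR-99a-5p, miR-99b-5p, miR-100-5p, miR-125a-5p and miR-125b-5p), 4 were testable in DCreg against maDC and all 4 were called higher, as in DCreg against imDC, where 20.3% and 16.1% of all tested miRNAs were called higher. In DCreg against HSC 3 of 4 were called higher and none lower (19.4% and 56% of all). The counts in these 3 comparisons were the same by recount. In maDC against HSC 2 of 3 were called higher and miR-99a-5p lower (21.7% and 48.9% of all). In imDC against HSC miR-99b-5p was called higher and miR-99a-5p lower (26.2% and 28.3%), and in maDC against imDC miR-125a-5p was called higher of 2 tested (9.38%). By recount 1 member was testable in each of these last 3 comparisons. miR-99b-5p was called higher against HSC in both, and neither miR-99a-5p nor miR-125a-5p was called. miR-100-5p, under 100 ppm throughout, had 121 recounted reads in HSC, 0 in imDC and 2 in maDC, and 78 in DCreg, values that were lowest in the same libraries as those of miR-10b-5p.

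Profiles over the 4 libraries were compared by the Euclidean distance between log2 levels, each centred on its own mean, over 187 miRNAs that reached 100 ppm in a library and lay above the floor in all. This is a description over 4 points. Nearest to miR-10a-5p was let-7c-5p (distance 0.75 in log2 units), at 59453 ppm in HSC, 25570 in imDC, 51150 in maDC, then 102576 in DCreg, followed by miR-3964, let-7b-5p, miR-101a-3p and let-7f-5p. In recounted reads let-7c-5p was again first (0.73), while miR-3964, with 5 to 15 reads a library, did not reach 100 ppm. Nearest to miR-196b-5p was miR-30a-3p (1.14), at 291 ppm in HSC, 40.2 in imDC, 7.60 in maDC, then 20.9 in DCreg, and it was again first in recounted reads (0.58). The next were miR-374-5p, miR-374c-3p, miR-15b-5p and miR-139-5p. The 5 distances ran from 1.14 to 2.52 for miR-196b-5p and from 0.75 to 1.15 for miR-10a-5p.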

How the data were processed

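Small RNA of 4 libraries, 1 per cell type, was sequenced on the Solexa platform after gel purification, adaptor ligation and 12 cycles of PCR, per the labels' protocols. The deposited table holds whole-number scores for mature miRNAs by hairpin, termed normalised counts in its header. No source used here names the normalisation, the aligner or the mismatches allowed. Other RNA classes were filtered out and the remaining reads compared with miRBase release 19, per the labels. Being normalised, these scores were used with no count model. Scores were summed over hairpins and scaled to 1000000 per column.

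Each library's deposited list of unique reads (4904897 to 6572858 raw read counts) was recounted against the table's mature sequences: at least 16 matching bases, a 5′ end within 2 nt, at most 5 unmatched 3′ bases, the longest match taken and ties divided. This placed 80.2% to 84.0% of reads. The recount and the call rule were tested on simulated data. The simulated reads had changed ends but no internal base changes, so they do not bear on reads given to the wrong paralog. The simulated counts had counting error only, so differences between libraries of the same cell type were not covered. Python 3.11.15, numpy 2.4.6, pandas 2.3.3 and scipy 1.17.1 were used.

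The members, the lists (other arms, miR-615, wider miR-10 family, markers) and the rule for nearest profiles were chosen with earlier results of these data known. That rule names the 5 nearest miRNAs by deposited values for each member that reached 100 ppm. Alternatives changed the scaling, by the trimmed mean of M-values (TMM) and others, the pseudocount, the minimum level, the hairpin sum, the use of recounted reads and the recount's own limits.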

Additional observations from a re-analysis of the deposited data

How the results depend on the processing

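Of 24 member ratios on deposited values (4 members in 6 comparisons), 3 took the other sign under some alternative and none of these was a called one. Besides miR-10a-5p in DCreg against HSC, these were miR-10b-5p in maDC against imDC, whose log2 ratio of 1.90 was -0.07 in recounted reads, and miR-196a-5p in DCreg against maDC, 0.22 and as low as -0.08. Of 24 ratios on recounted reads 2 changed sign with the recount's limits, again miR-10b-5p in maDC against imDC (1.48) and miR-196a-5p in DCreg against maDC (-0.12), both where reads with an unmatched 3′ base were left out. The number of members called depended mainly on the 100 ppm minimum. With no minimum, 4 were lower in imDC against HSC and 4 in maDC against HSC (2 and 2 with it). In DCreg against HSC it gave 1 higher and 2 lower (0 and 1 with it), in maDC against imDC 2 higher and 1 lower (0 and 0), in DCreg against maDC 3 higher (1) and in DCreg against imDC 3 higher and 1 lower (1 and 0). The share of all miRNAs called with no minimum was not computed, so these counts have no background and are no result about the members. Some rest on low scores, such as 6 for miR-196a-5p and 10 for miR-10b-5p in imDC. In maDC against HSC 1 was lower with TMM, with median-of-ratios and without the 5 most abundant miRNAs. Of all tested miRNAs 61 of 169, 70 of 176 and 102 of 241 were then lower. In maDC against imDC 1 was higher, miR-10a-5p, under these 3 settings and with the largest value over hairpins. There 27 of 154, 31 of 152, 25 of 224 and 16 of 159 tested miRNAs were higher, in the same order. Leaving out the 5 most abundant also gave 1 higher in DCreg against HSC, 2 in DCreg against maDC and 2 in DCreg against imDC, since it raises all levels. Over all tested miRNAs it gave 63 of 241, 48 of 209 and 48 of 242 higher in these comparisons. In DCreg against maDC 0 were higher with all reads as the total and 0 in recounted reads. TMM moved the median log2 ratio of all tested miRNAs by 0.21 in imDC against HSC, 0.76 in maDC against HSC, 0.86 in DCreg against HSC, 0.55 in maDC against imDC, 0.10 in DCreg against maDC and 0.65 in DCreg against imDC, so members are set beside those medians. No paired analysis was possible because each cell type has 1 library and no test was made. Values that rest on 8 reads or fewer are limited by depth.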
